A study of Mus musculus with 6 samples.

Results

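The genes for translation initiation factors (eIF) and translation elongation factors (eEF) were followed in mouse ES cells that lacked mature miRNAs and received either miR-294 or a control miRNA. Members were the array probes whose name starts with EIF and a digit from 1 to 6, or with EEF and 1 or 2, without the Argonaute genes listed as EIF2C and without the eIF2 kinases listed as EIF2AK. The rule reads names and no measured value, although the family was chosen with earlier results of these data known. It took 103 of 45281 probes, under 59 names that stand for 54 genes in the RefSeq annotation of GRCm38.p6. Both groups are labelled as *Dicer1*-null ES cells of strain 129/SvEv. Per the methods, Cre had deleted the floxed alleles of both *Ago2* and *Dicer1*, single colonies were picked, and an Ago2-myc transgene driven by the CAG promoter stood in for the endogenous *Ago2*, in control and miR-294 cells alike. They were grown without feeder cells in medium with LIF. Cells received 300 pmol of mimic with 1 µg of a GFP plasmid by nucleofection, and GFP-positive cells were collected after 24 hr. The miR-294 mimic was measured in 3 samples and cel-239b, a *C. elegans* miRNA with little similarity to mouse miRNAs, to 3 others. Per the methods these were separate transfections, 3 per mimic, so the *p*-values measure the spread between transfections.

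Translation starts when eIF2 brings the initiator tRNA to the small ribosomal subunit, helped by eIF1, eIF1A, eIF3 and eIF5. eIF2B reloads eIF2 with GTP, and the eIF4 proteins bind the mRNA cap, unwind the leader and recruit the ribosome. eEF1A then delivers each aminoacyl-tRNA, eEF1B recharges eEF1A, and eEF2 moves the ribosome along the mRNA. ES cells divide quickly and depend on this machinery for growth.

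The miRNA is shown because it is the agent whose effect was measured. The mature mmu-miR-294-3p of RefSeq lies at chr7:3220691-3220712 on the plus strand of GRCm38.p6, and the capitals mark the seed, bases 2 to 8.
mmu-miR-294-3p: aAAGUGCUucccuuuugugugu

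Between 30.6% and 32.9% of the probes of an array were detected, the median signal lay between 62.2 and 72.4, and arrays of the same group correlated more closely (Pearson's *r* of 0.9948 to 0.9971 over tested probes) than arrays of different groups (0.9829 to 0.9882). All 9 ES cell marker genes listed were detected. Of 7 markers of feeder fibroblasts, *Thy1* alone was detected, on the 3 miR-294 arrays and on no cel-239b array, so that it passed the filter only through the group in which it was higher, and *Col1a1*, *Col1a2*, *Col3a1*, *Dcn*, *Lum* and *Postn* were not. Of 6 trophoblast markers, *Cdx2* and *Eomes* were detected on all arrays and rose by 0.56 and 0.64 (limma adjusted *p* = 0.00057 and 0.0028), more than any factor probe. Of 4 markers of primitive endoderm none was detected. The summed normalised linear signal of the ES cell list was 116800 to 119400 with cel-239b and 122600 to 126000 with miR-294. Of its 13 tested probes, 4 rose and 1 fell (30.8% and 7.69%, beside 16% and 16.3% of all tested probes). *Nanog* rose by 0.19 and 0.62, *Zfp42* by 0.22 and *Esrrb* by 0.34, and *Tdgf1* fell by 0.39 on the log2 scale. With cel-239b and with miR-294, the summed signal of the trophoblast list was 386.9 to 409.8 and 469.6 to 508.0. That of the fibroblast list was 378.5 to 384.3 and 426.1 to 444.9, and that of the endoderm list 142.4 to 158.5 and 143.9 to 149.6. The part of these differences in the results was not tested. In such bulk RNA, a change in the number of cells of a type and in the RNA per cell cannot be told apart.

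Of the 103 member probes, 77 passed the detection filter (a score above 0.99 on at least 3 of the 6 arrays), and all 77 were detected on all 6 arrays. They stand for 44 of the 54 genes. Of the other 26 probes, 25 were detected on no array, and that of *Eif3j1* was detected on 2 miR-294 arrays. The filter therefore took no member through a single group. With miR-294, 19 probes for 15 genes rose and 2 probes for 2 genes fell at an adjusted *p*-value below 0.05 from limma, and 56 did not pass. The share that rose was 24.7%, beside 16% of all 14621 tested probes. The share that fell was 2.60%, beside 16.3%, and 32.3% of all tested probes passed in either direction. With 1 array left out, 10 or 11 probes were higher on omitting cel-239b replicate 2, cel-239b replicate 3, miR-294 replicate 1 or miR-294 replicate 2, 13.0% to 14.3% of the members beside 10.1% to 11.3% of all tested probes in the same fits, and none was lower in 4 of the 6 omissions. The median log2 fold change (miR-294 minus cel-239b) was 0.10 over the member probes and 0.01 over all tested probes, and 59 of the 77 members were above 0, 76.6% beside 51.8% of all probes. The sizes were small. The members ranged from -0.30 to 0.53, and 3.90% of them changed by at least 0.5 in either direction, beside 9.59% of all tested probes. No member changed by 1 or more, beside 1.24% of all tested probes. None reached a *B*-statistic above 5, the study's cut-off, which 0.677% of all tested probes passed as higher and 0.793% as lower, 1.47% in all.

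The groups did not overlap for 31 member probes that were higher on every miR-294 array and for 5 that were lower, 40.3% and 6.49% of the members beside 24.3% and 23.6% of all tested probes (47.9% in either direction). With 3 arrays per group, a two-sided exact permutation test on 1 probe cannot go below *p* = 0.10. Member probes had high signals, with a median percentile of 91.0 among tested probes, and 59 lay at or above the 75th percentile. In that range, 18 of the 59 members rose (30.5%) and 1 fell (1.69%), beside 15.3% and 15.9% of the 3597 other probes in it.

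**Figure D1:**
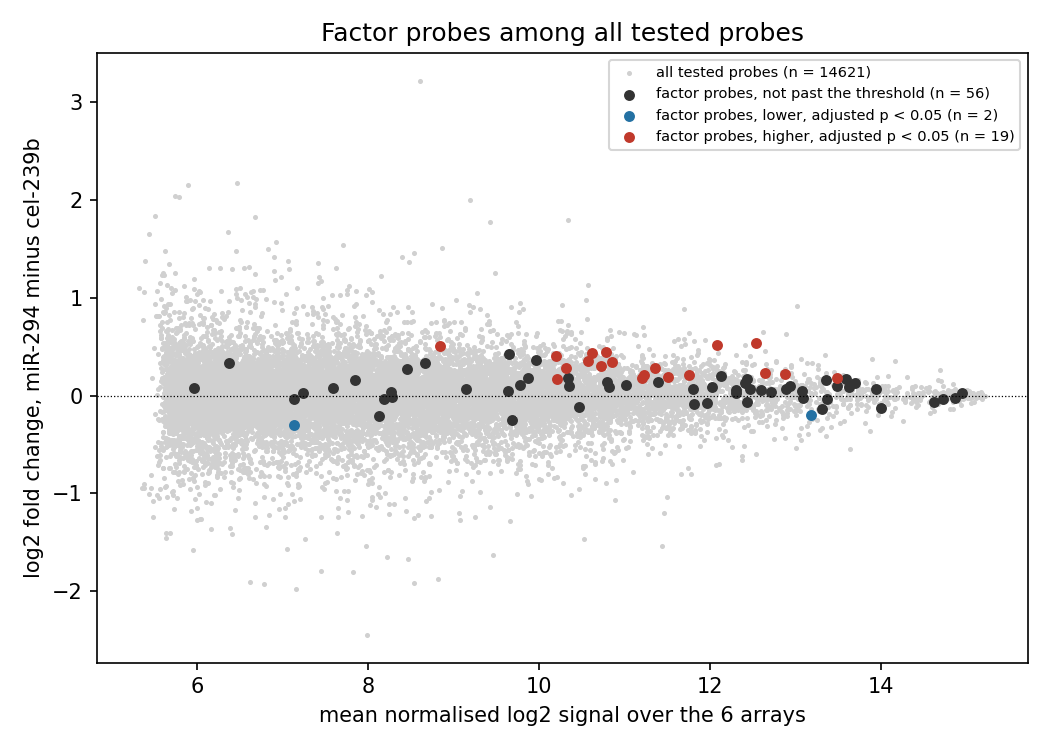
Log2 fold change (miR-294 minus cel-239b, y axis) against the mean normalised log2 signal over the 6 arrays (x axis) for all 14621 tested probes (grey) and the 77 factor probes (19 higher in red, 2 lower in blue, 56 not past the threshold in black). The factor probes sit mostly at high signal and between -0.30 and 0.53, above 0 for 59 of 77.

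eIF5A, a hypusine-containing factor that aids peptide bond formation and termination, had the probe with the largest increase of all tested member probes. By the brightest tested probe of each gene, *Eif5a* gave 0.23, below genes such as *Eif2b1* at 0.45. All 3 probes of *Eif5a* rose. The log2 signal of probe 4230563 was 12.43, 12.12 and 12.28 with cel-239b and 12.83, 12.81 and 12.79 with miR-294, in the order of the replicate numbers, which is kept throughout. Every miR-294 array thus lay above every cel-239b array, and the miR-294 arrays differed among themselves by less than the cel-239b arrays did. The difference between the group means (log2 fold change, given with its standard error) was 0.53 ± 0.08 (SE, limma adjusted *p* = 0.0033), or 1.45-fold. Probe 2370446 measured 12.02, 11.68 and 11.78 with cel-239b and 12.36, 12.46 and 12.21 with miR-294. The difference was 0.52 ± 0.10 (SE, limma adjusted *p* = 0.0093), again with no overlap between the groups. The third, probe 6040086, moved less, from 12.48, 12.53 and 12.58 to 12.78, 12.69 and 12.83, a difference of 0.23 ± 0.06 (SE, limma adjusted *p* = 0.026). This last call was lost when cel-239b replicate 1, cel-239b replicate 2, miR-294 replicate 1 or miR-294 replicate 3 was left out, with adjusted *p*-values up to 0.080. The single probe of its paralogue *Eif5a2* was not detected on any array.

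*Eif5*, which makes eIF2 hydrolyse its GTP once the start codon is found, was measured by 3 probes, of which 1 passed the test. Probe 3830315 rose from 10.53, 10.32 and 10.36 to 10.83, 10.87 and 10.81, a difference of 0.43 ± 0.07 (SE, limma adjusted *p* = 0.0040). Probe 5490114 gave 0.20 (95% interval -0.14 to 0.54), and probe 5720468 gave -0.07 (95% interval -0.20 to 0.06). Neither of these passed the test. In cel-239b, probe 5490114 spread from 11.75 to 12.37, a range wider than that of the miR-294 arrays (12.18 to 12.30). *Eif5b*, the factor for subunit joining, gave 0.03 with its tested probe, and *Eif6*, which keeps the large subunit from joining too early, gave 0.06 (95% interval -0.07 to 0.20).

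The complex eIF2B, the exchange factor of eIF2, had 4 of 8 tested probes higher (50%, beside 16% of all tested probes), and all 8 had a log fold change above 0 (beside 51.8% of all tested probes), with a median of 0.14. *Eif2b1*, the regulatory alpha subunit, rose with both of its probes. Probe 2510079 measured 10.64, 10.60 and 10.44 with cel-239b and 11.07, 10.97 and 10.98 with miR-294, a difference of 0.45 ± 0.07 (SE, limma adjusted *p* = 0.0037). Probe 1260192 measured 10.04, 9.88 and 10.08 and then 10.45, 10.52 and 10.23, a difference of 0.40 ± 0.09 (SE, limma adjusted *p* = 0.016). The groups were separate for both probes, although the call of the second was lost without cel-239b replicate 2 or miR-294 replicate 1, at an adjusted *p* of up to 0.051. *Eif2b3* and *Eif2b4*, the gamma and delta subunits, rose by 0.17 and 0.19. The call of *Eif2b3* was lost with cyclic loess and with any single array left out, and that of *Eif2b4* without a detection filter and on omitting any array but miR-294 replicate 3 (adjusted *p* up to 0.11 for both). The 3 probes of *Eif2b5*, the catalytic epsilon subunit, gave 0.05 to 0.11 and did not pass, and *Eif2b2* gave 0.11 (adjusted *p* = 0.33 from limma).

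Of the 4 tested probes of eIF2 and eIF2A, 2 rose (50%, beside 16% of all tested probes), and all 4 were higher on every miR-294 array (beside 24.3% of all tested probes), with a median log fold change of 0.19. *Eif2s2*, the beta subunit, measured 10.21, 10.19 and 10.13 with cel-239b and 10.46, 10.51 and 10.39 with miR-294 by probe 5260240. The difference was 0.28 ± 0.06 (SE, limma adjusted *p* = 0.011), whereas its other probe gave 0.13 (adjusted *p* = 0.12). *Eif2s3x*, the X-linked gamma subunit, rose from 11.11, 11.15 and 11.11 to 11.31, 11.35 and 11.33, a difference of 0.21 ± 0.05 (SE, limma adjusted *p* = 0.021). This call was lost on omitting cel-239b replicate 3, miR-294 replicate 2 or miR-294 replicate 3 (adjusted *p* up to 0.065). *Eif2a*, an alternative factor for initiator tRNA and not a subunit of eIF2, gave 0.17 (95% interval 0.02 to 0.31, adjusted *p* = 0.073 from limma). It passed without background correction (adjusted *p* = 0.049), with cyclic loess (0.040) and with median scaling, where it was 0.28 (adjusted *p* = 0.013). The only probe of *Eif2s1*, the alpha subunit, and both probes of *Eif2s3y* were not detected on any array, so this group describes the complex in part. The 4 tested probes for *Eif1a*, *Eif1ad* and *Eif1b* gave 0.05 to 0.09, and none passed. With median scaling *Eif1a* was 0.20 and passed (adjusted *p* = 0.042).

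**Figure D2:**
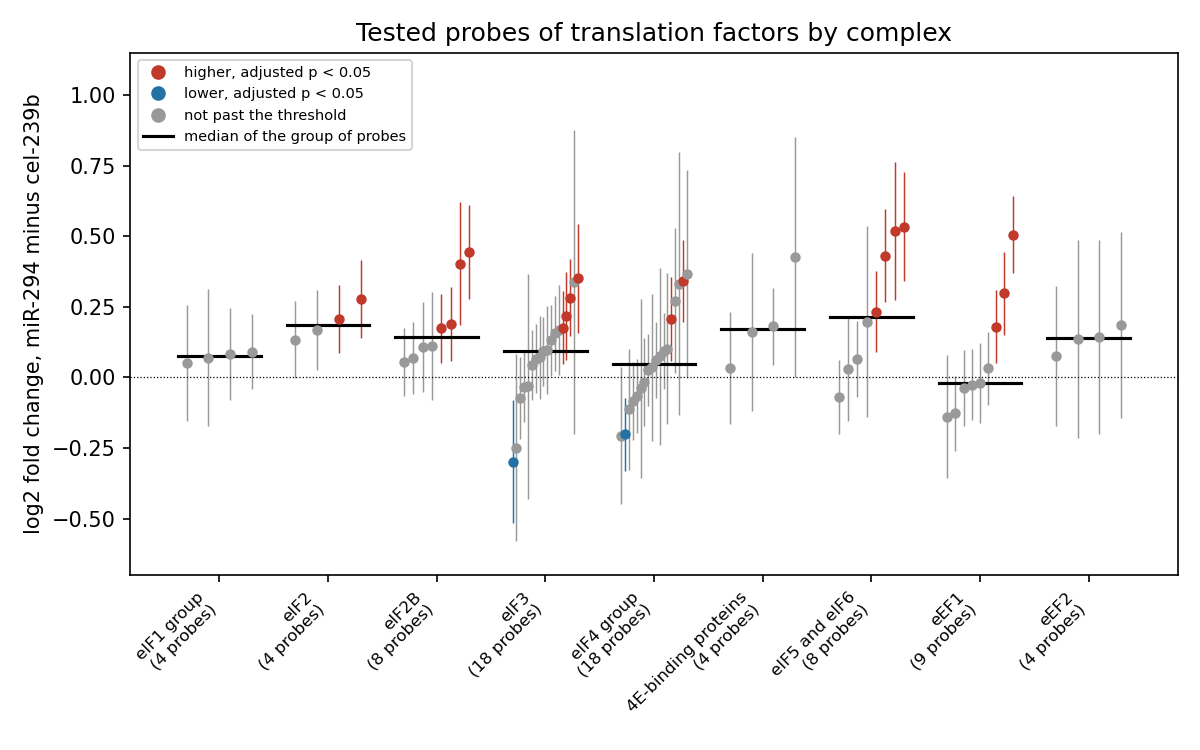
Log2 fold change (miR-294 minus cel-239b, y axis) of each tested factor probe by complex (x axis), with the 95% interval from limma, the call in colour and the median of each group of probes as a black line. Red points, the 19 rises, are in eIF2, eIF2B, eIF3, the eIF4 group, the group of eIF5 and eIF6, and eEF1, and the 2 falls in blue are in eIF3 and the eIF4 group.

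eIF3, the scaffold of many subunits that holds the mRNA and the small subunit together, was measured by 18 tested probes for 10 genes. Of these, 4 rose and 1 fell (22.2% and 5.56%, beside 16% and 16.3% of all tested probes), and the median log fold change was 0.09. *Eif3c* (listed as *Eif3s8*) measured 10.56, 10.34 and 10.30 with cel-239b and 10.69, 10.82 and 10.74 with miR-294 by probe 110328, a difference of 0.35 ± 0.08 (SE, limma adjusted *p* = 0.017). The other probe of *Eif3c* gave -0.25 (95% interval -0.58 to 0.08), so the increase rests on probe 110328, and its call was lost when cel-239b replicate 2, cel-239b replicate 3 or miR-294 replicate 2 was left out (adjusted *p* up to 0.058). *Eif3a* (listed as *Eif3s10*) rose from 11.29, 11.16 and 11.20 to 11.46, 11.52 and 11.50 by probe 1300491, a difference of 0.28 ± 0.06 (SE, limma adjusted *p* = 0.010). Its other tested probe gave -0.03. *Eif3l* (listed as *Eif3eip*) rose by 0.22 with probe 630600, and *Eif3b* by 0.18 with probe 1850685. The other tested probes of these genes gave 0.17 for *Eif3l* and 0.34 for *Eif3b* (adjusted *p* = 0.29), and neither passed. With any single array left out the call of *Eif3b* was lost (adjusted *p* up to 0.13), as was that of *Eif3l* except on omitting cel-239b replicate 1. The call of *Eif3b* was also lost with cyclic loess, array weights, detection on at least 1 array or no detection filter, and that of *Eif3l* with no detection filter.

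The fall in eIF3 was that of *Eif3h*, by a probe of low signal (percentile 32.7, beside a median of 95.6 for eIF3 probes). The other probe of *Eif3h*, listed as *Eif3s3*, was not detected on any array, and neither was that of *Eif3e*. Probe 6250484 measured 7.23, 7.40 and 7.22 with cel-239b and 6.89, 7.16 and 6.90 with miR-294, a difference of -0.30 ± 0.09 (SE, limma adjusted *p* = 0.045). The groups were separated by a narrow margin, and the call was lost with median scaling, with detection on at least 1 array, with no detection filter, or without any array other than miR-294 replicate 2, at adjusted *p*-values up to 0.13. *Eif3f*, *Eif3g*, *Eif3i*, *Eif3d* and *Eif3k* were measured by 9 probes that gave -0.07 to 0.16, none past the test. For *Eif3f* probe 2710731, the 95% interval was -0.06 to 0.19.

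The eIF4 group, which binds the cap and unwinds the mRNA leader, had 2 rises and 1 fall among 18 tested probes (11.1% and 5.56%, beside 16% and 16.3% of all tested probes), with a median log fold change of 0.05. This median was -0.01 with no detection filter, 0.10 with median scaling and 0.02 without cel-239b replicate 1. *Eif4g2*, the eIF4G relative that lacks the cap-binding arm and serves cap-independent initiation, rose from 10.77, 10.60 and 10.67 to 11.05, 11.02 and 10.99 by probe 1570333. The difference was 0.34 ± 0.06 (SE, limma adjusted *p* = 0.0063). Its other probes gave 0.37 (adjusted *p* = 0.11) and -0.04 (adjusted *p* = 0.85). *Eif4e2*, a cap-binding relative of eIF4E linked to translational repression, rose by 0.21 with the probe listed as *Eif4el3* (adjusted *p* = 0.044 from limma), and its other probes did not pass. The call was lost with any single array left out, with detection on at least 1 array and with no detection filter (adjusted *p* up to 0.12).

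*Eif4a2*, one of the RNA helicases of the cap complex, fell by 0.20 on the log2 scale with probe 7050300, from 13.27, 13.26 and 13.34 to 13.07, 13.13 and 13.06. The standard error of this difference was 0.06 (limma adjusted *p* = 0.030). The arrays did not overlap. The call was lost with median scaling (log fold change -0.10, adjusted *p* = 0.21) and when cel-239b replicate 2, cel-239b replicate 3, miR-294 replicate 1 or miR-294 replicate 3 was left out. Its other tested probes gave -0.21 and 0.10 and did not pass. The paralogue *Eif4a1* gave -0.06 (95% interval -0.20 to 0.07) and 0.06 with its 2 probes, and *Eif4a3*, a helicase of the exon junction complex, gave 0.03.

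The cap-binding protein *Eif4e* measured 7.33, 7.50 and 7.83 with cel-239b and 7.46, 7.69 and 7.72 with miR-294, overlapping groups with a log2 difference of 0.07 (95% interval -0.24 to 0.39). The scaffold *Eif4g1* gave -0.11 and -0.08, and *Eif4b* and *Eif4h*, which stimulate the helicase, gave 0.04 to 0.33, none past the test. The probes of *Eif4e1b* and *Eif4e3* (3 each) were not detected on any array. Of the proteins that bind eIF4E, *Eif4ebp1* gave 0.03 (95% interval -0.17 to 0.23), *Eif4ebp2* 0.43 (adjusted *p* = 0.11, with cel-239b replicate 1 at 9.88 and the other cel-239b arrays at 9.21 and 9.22) and *Eif4enif1* 0.18 and 0.16. None of these 4 tested probes passed.

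**Figure D3:**
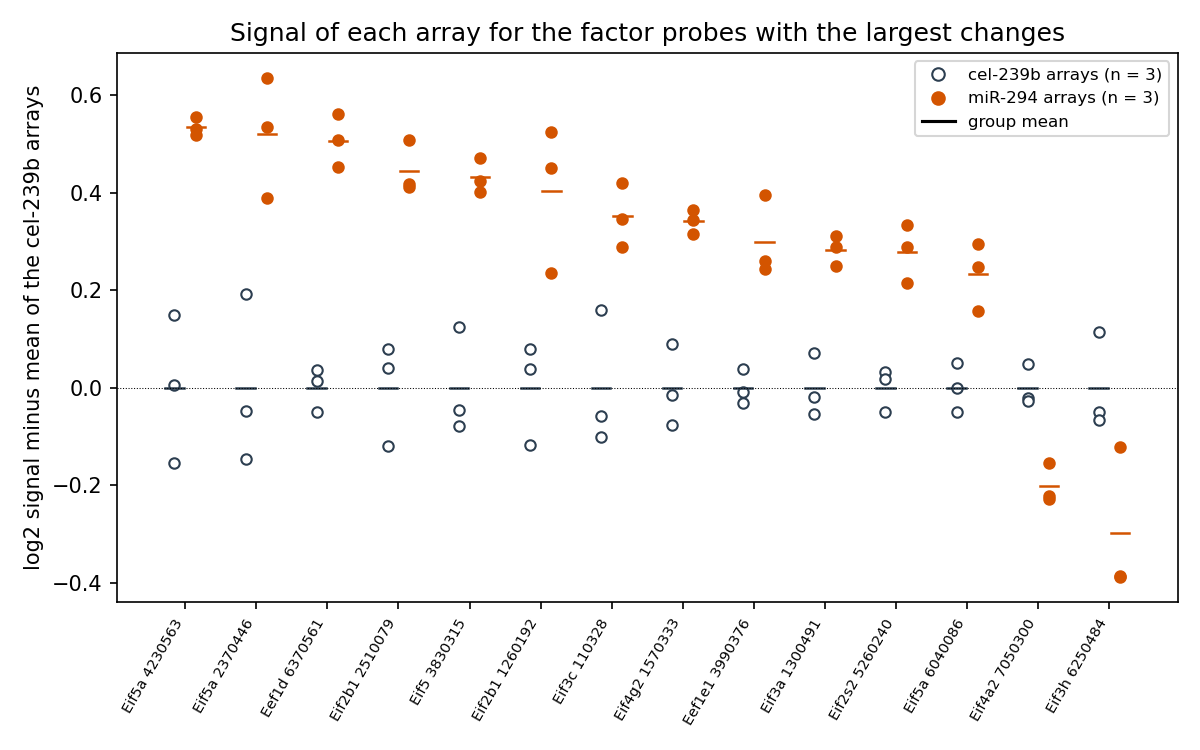
Log2 signal of each array minus the mean of the 3 cel-239b arrays (y axis) for the 12 factor probes with the largest rise and the 2 that fell (x axis, gene and probe), with open circles for cel-239b, filled circles for miR-294 and short lines for group means. The 14 probes were taken from calls without overlap between the groups, so their separation follows from that choice. The mean differences run from 0.53 for *Eif5a* to -0.30 for *Eif3h*.

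Of 13 tested probes with the name of an elongation factor, 3 rose and none fell (23.1% and 0%, beside 16% and 16.3% of all tested probes). By name, these include *Eef1e1*, a protein of the multi-synthetase complex, and the kinase *Eef2k*. The rises were the probe of *Eef1e1* and both tested probes of *Eef1d*, so the share for elongation factors proper is lower. *Eef1a1*, the carrier of aminoacyl-tRNA, measured 14.94, 14.99 and 14.90 with cel-239b and 15.01, 14.95 and 14.96 with miR-294 by probe 1690689, a log fold change of 0.03 (95% interval -0.10 to 0.16). Its other tested probe gave -0.02. The raw signals of probe 1690689 were 30123 to 33031.6, where the highest signal of an array was 36665.9 to 40918.7. Whether changes are compressed at such signals was not tested. *Eef1g* gave -0.04 (95% interval -0.17 to 0.10), and the 3 probes of *Eef1b2* gave -0.14 to -0.03, all below 0 and none past the test. All 3 probes of *Eef1a2*, the form of muscle and neurons, were not detected.

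*Eef1d*, the delta subunit of the exchange factor eEF1B, rose with both tested probes. Probe 6370561 measured 8.60, 8.54 and 8.62 with cel-239b and 9.15, 9.09 and 9.04 with miR-294. The difference was 0.51 ± 0.06 (SE, limma adjusted *p* = 0.0010), with a *B*-statistic of 2.56, the highest of all member probes. Probe 4050603 rose from 13.39, 13.42 and 13.40 to 13.64, 13.53 and 13.58, a difference of 0.18 ± 0.06 (SE, limma adjusted *p* = 0.044). The groups were separate for both. The call of probe 4050603 was lost with any single array left out, with detection on at least 1 array and without a detection filter (adjusted *p* up to 0.12). *Eef1e1*, a protein of the multi-synthetase complex in spite of its name, rose from 10.54, 10.61 and 10.56 to 10.83, 10.97 and 10.82, a difference of 0.30 ± 0.06 (SE, limma adjusted *p* = 0.011).

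*Eef2*, the translocase, was measured by 3 probes whose arrays overlapped between the groups. Probe 1690070 measured 11.61, 11.16 and 11.21 with cel-239b and 11.69, 11.25 and 11.46 with miR-294, which gives a log2 difference of 0.14 (95% interval -0.22 to 0.49). The other probes gave 0.14 and 0.18 and shared the pattern, with the highest signal of each group on replicate 1. *Eef2k*, the kinase that inactivates eEF2, gave 0.08 (95% interval -0.17 to 0.32).

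Several probes were tested for 24 of the genes, and in 15 of them every probe had the same sign. No gene had probes called in opposite directions. Every tested probe was called the same way in 3 genes, *Eif5a*, *Eif2b1* and *Eef1d*. For these counts, the shares over all genes with several tested probes were not computed. As 76.6% of the member probes were above 0, the counts do not measure agreement between the probes of a gene. At an adjusted *p*-value below 0.05, 9 of the 77 tested member probes were called in each of the 15 alternative fits (normalizations, offset, filters, block, weights and left-out arrays). They were 2 of *Eif5a* and 1 each of *Eef1d*, *Eef1e1*, *Eif2b1*, *Eif2s2*, *Eif3a*, *Eif4g2* and *Eif5*. The share of all tested probes that was called in every fit was not computed. Probe sequences were not used here. Signal from near-identical copies was therefore not separated from that of the gene, and values for families with many processed copies, such as that of *Eef1a1*, are uncertain for this reason.

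Lists of genes that act beside the factors were counted in the same fit. In the list of poly(A)-binding and reinitiation genes, 11 of 14 tested probes for 5 of 8 genes rose (78.6%, beside 16% of all tested probes) and none fell, with a median log fold change of 0.45. *Pabpc1*, the poly(A)-binding protein that bridges the mRNA tail to eIF4G, rose by 0.22, 0.77 and 0.78, and *Pabpc4* by 0.44 and 0.66. *Denr* and *Lgtn* (now *Eif2d*), which recycle and reinitiate, rose by 0.33 and 0.45 and by 0.46 with both probes. *Paip2*, an inhibitor of poly(A)-binding protein, gave -0.07, and its relative *Paip2b* rose by 0.19 and 0.53. Of the cytosolic aminoacyl-tRNA synthetases and their partners, 7 of 35 probes rose (20%, near the 16% of all tested probes) and none fell (beside 16.3%), with the largest rise in *Dars* (0.58, with overlapping groups) and the lowest value in *Vars* (-0.23, adjusted *p* = 0.050 from limma, not called).

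Among genes that modify eIF5A and eEF2, 2 of 11 probes rose and 2 fell (18.2% each, near the 16% and 16.3% of all tested probes). *Dph2*, which starts the synthesis of diphthamide on eEF2, fell by 0.56 and 0.52 on the log2 scale with the pair of its probes that passed and gave -0.17 with another, and *Dph3* rose by 0.32 with 1 of 3 probes. *Dhps*, the first enzyme of hypusine synthesis on eIF5A, gave 0.10. Among regulators of initiation, 1 of 18 probes rose (5.56%) and 2 fell (11.1%), both below the shares over all tested probes. *Eif2ak2*, the eIF2 kinase activated by double-stranded RNA, fell by 0.28, *Mknk2*, a kinase of eIF4E, also fell by 0.28, and *Ppp1r15b*, which directs the dephosphorylation of eIF2, rose by 0.17 with 1 of its 2 tested probes. No probe of the 4 termination and recycling genes passed (0.02 to 0.13). Of 12 probes for mitochondrial translation factors, 2 rose, with a probe of *Mtrf1* the largest at 0.28, and 1 fell, a probe of *Mtif3* by 0.22. The other probes of *Mtrf1* gave 0.17 and 0.20 and that of *Mtif3* gave 0.06, none past the test. The shares of the list that rose and fell, 16.7% and 8.33%, stand beside 16% and 16.3% of all tested probes. These counts are descriptions, and no list was tested as a set.

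**Figure D4:**
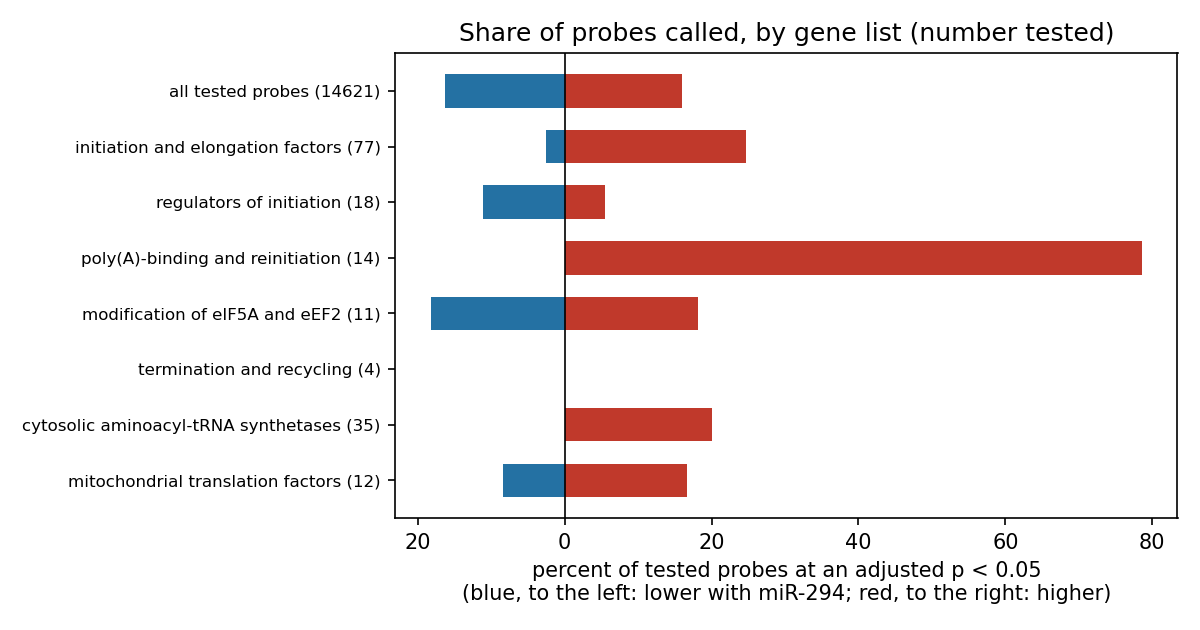
Percent of tested probes (x axis) that rose (red, to the right) or fell (blue, to the left) at an adjusted *p*-value below 0.05, for all tested probes, the 77 factor probes and 6 lists of related genes (y axis, number of tested probes in brackets). The factor probes show 24.7% rises and 2.60% falls beside 16% and 16.3% of all tested probes, and the poly(A)-binding list shows 78.6% rises.

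Factors of the Myc family bind the E-box CACGTG, a motif that reads the same on both strands, and translation factors are known among their target genes. RefSeq promoter windows of GRCm38.p6, 250 bases before to 50 bases after an annotated start, were matched for 41 of the 54 genes. CACGTG was found for 12 of them (29.3%), beside 2187 of 27025 genes with such a window (8.09%). A gene counted if any of its windows held the motif, so genes with several annotated starts had more chances. The 27025 genes were not limited to those with a tested probe. The number of windows per gene was not matched, and enrichment was not tested. It was present for 2 of 12 matched genes that rose, *Eif5a* and *Eif3a*, and for 9 of 22 whose tested probes did not pass. A match is a description of the sequence, and no binding was measured. Windows of 30 bases are given for the gene of the probe with the largest increase and for 3 genes that did not pass the test, with the motif in capitals. They lie at chr11:69921443-69921472 (minus strand) and chr11:69920791-69920820 (minus strand) for *Eif5a*, chr3:138527192-138527221 (plus strand) for *Eif4e*, chr11:69672595-69672624 (minus strand) for *Eif4a1* and chr10:81176576-81176605 (plus strand) for *Eef2*.
Eif5a, first site: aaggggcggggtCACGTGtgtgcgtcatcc
Eif5a, other site: gcgctgcgcggcCACGTGaggtgggggagg
Eif4e: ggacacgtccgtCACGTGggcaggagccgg
Eif4a1: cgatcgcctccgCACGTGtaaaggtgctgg
Eef2: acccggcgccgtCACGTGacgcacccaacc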

How the data were processed

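RNA of *Dicer1*-null ES cells was hybridised to 6 Illumina MouseWG-6 v2.0 arrays, 3 per group. GenomeStudio 1.0.6 averaged the bead intensity per probe, and the authors deposited this intensity without normalization, per the file headers. The same deposited table holds bead standard deviations (intensity), bead counts and a detection score between 0 and 1. A further 24 columns (minimum, maximum, number of arrays and standard deviation over arrays) were not used. Groups came from sample titles.

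Using limma 3.58.1 (R 4.3.3), background was modelled from the detection scores, an offset of 16 was added and signals were quantile normalised on the log2 scale (neqc). Probes with a detection score above 0.99 on at least 3 arrays were tested with a linear model without a block and with empirical Bayes moderation. A probe was called at a Benjamini-Hochberg adjusted *p*-value below 0.05 over all tested probes. The *B*-statistic used a prior share of 0.01. Members and gene lists were chosen with earlier results of these data known. The probes named in full were the 12 largest rises and 12 largest falls among called probes whose groups did not overlap (only 2 falls passed), any with a *B*-statistic above 5, any gene with probes called in opposite directions, and the probe with the highest mean signal in each complex. Further members are named for illustration, chosen after their values were seen. On simulated data of 14621 probes with 3 arrays per group, 61% of 100 probes changed by 0.5 on the log2 scale were called and 14% of 100 changed by 0.3, none in the wrong direction. Only 100 probes of each size were changed in that simulation, whereas 32.3% of all tested probes passed in the data. The adjusted threshold was therefore stricter in the simulation, and these shares do not measure the sensitivity reached in the data. Alternatives were other normalizations, offset, detection filters, threshold, a replicate block, array weights, a single probe per gene, and each array left out.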

Additional observations from a re-analysis of the deposited data

How the results depend on the processing

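The counts of factor probes higher and lower with miR-294 (19 and 2) were 29 and 0 with median scaling (37.7% and 0%, beside 18.5% and 14.7% of all tested probes in that fit), and both were 0 at a *B*-statistic above 5, where the count of the poly(A)-binding and reinitiation list (11) was also 0. The count of lower probes was 1 with detection on at least 1 array (1.28%, beside 14.9% of all tested probes in that fit). It was also 1 without a detection filter (0.971%, beside 4.5%) and in the fit with a replicate block (1.3%, beside 14.8%). The higher count was 16 with detection on at least 1 array (20.5%, beside 14.7%) and 14 without a detection filter (13.6%, beside 4.12%). In the replicate block fit, 15 factor probes were higher (19.5%, beside 14.4% of all tested probes in that fit) and 15 of the 21 calls remained. The calls of *Eif4a2* probe 7050300 (adjusted *p* = 0.064), *Eef1d* probe 4050603, *Eif2b3*, *Eif2b4*, *Eif3b* and *Eif4e2* did not pass in it. Arrays with the same replicate number deviated from their group means with correlations of 0.139, -0.0777 and 0.141, so they were not treated as pairs. With 1 probe per gene, 12 of 44 factor genes were higher and 2 lower, and 5 of 8 genes of the poly(A)-binding list were higher. The share over all genes was not computed for that setting. With each array left out in turn, 10 to 20 factor probes were higher and 0 to 3 were lower (13% to 26% and 0% to 3.9% of the members). Of all tested probes, 10.1% to 16.9% were higher and 11.1% to 15.9% lower in these fits. The higher count was 10 on omitting cel-239b replicate 2 (13.0%, beside 11% of all tested probes in that fit), and 11 on omitting cel-239b replicate 3, miR-294 replicate 1 or miR-294 replicate 2. The lower count was 1 without cel-239b replicate 1, 3 without miR-294 replicate 2 and 0 without each other array. Medians of the log fold change moved as follows. Median scaling gave 0.1745 for all factor probes, where all tested probes had 0.04, and 0.0751 for eEF1, 0.2715 for eIF2, 0.1918 for eIF3, 0.1011 for the eIF4 group and 0.3256 for eIF5 and eIF6. Without a detection filter, eEF1 had -0.0035, the eIF4 group -0.0112 and eIF5 and eIF6 0.0650. Array weights gave -0.0059 for eEF1. With 1 probe per gene, eEF1 had 0.0320, the eIF4 group 0.0746 and eIF5 and eIF6 0.0479. With arrays left out, the medians ran from 0.1272 to 0.2358 for the 4E-binding proteins, -0.0319 to 0.0181 for eEF1, 0.0789 to 0.1243 for eIF3, 0.0196 (cel-239b replicate 1 omitted) to 0.0888 (miR-294 replicate 1 omitted) for the eIF4 group, 0.0371 (miR-294 replicate 1 omitted) to 0.2775 (cel-239b replicate 1 omitted) for eEF2 and 0.1621 to 0.2855 for eIF5 and eIF6. The median of eEF1 thus changed sign between settings. The cause of these shifts was not tested. The number of arrays, 3 per group, limits the precision.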
